A study of Mus musculus with 6 samples.

Results

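The hedgehog pathway was described through 7 genes in the Achilles tendon of mice, chosen by symbol from the 24411 genes of the count table: the receptor gene Ptch1, the signal transducer gene Smo, the inhibitor gene Sufu, the transcription factor genes Gli1, Gli2 and Gli3, and the gene of the decoy receptor Hhip. All 7 are in the table. RNA-seq libraries were made from total RNA of the tendon at 18 weeks of age, all mice being C57BL/6. Scx-Cre/Piezo1 GOF was the genotype of 3 of them, which joins a gain-of-function allele of the mechanically gated cation channel Piezo1 with a Cre recombinase driven by sequence of Scx, a transcription factor gene of tendon cells. The other 3 libraries were WT, and their labels name no Cre, so the effects of the allele and of the Cre cannot be told apart. The labels state neither separate animals nor sex, so p-values here measure a spread among samples that may be technical, and they do not say whether the enthesis, the insertion into bone, was part of the dissected tissue.

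Hedgehog ligands (Shh, Ihh and Dhh) bind Ptch1, which otherwise holds Smo inactive, and active Smo at the primary cilium frees the Gli factors from Sufu. Gli2 and Gli3 exist before the signal arrives and can act as activators or, chiefly Gli3, as repressors, whereas Gli1, Ptch1 and Hhip are themselves switched on by the signal and so serve as its usual transcript readouts. At the enthesis, where tendon joins bone, cells that respond to hedgehog build and mineralise the fibrocartilage. In peripheral nerve, Schwann cells make Dhh, and the surrounding perineurium responds to it.

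Promoter windows of 6 of the 7 genes were found in RefSeq (GRCm38.p6, the assembly of mm10), Gli1 being the other. They were searched on both strands for the Gli consensus GACCACCCA and for its core ACCACCC, which lies within the consensus. The windows of Ptch1 and Hhip are shown because both genes are readouts of Gli activity, and that of Gli2 because it holds a core match, on the strand opposite to the gene, in capitals. They run 5′ to 3′ on the strand of the gene, from 250 bases before the RefSeq start to 50 after it, and lie on the minus strand at chr13:63565686-63565985, chr8:80057959-80058258 and chr1:119053570-119053869.
Ptch1: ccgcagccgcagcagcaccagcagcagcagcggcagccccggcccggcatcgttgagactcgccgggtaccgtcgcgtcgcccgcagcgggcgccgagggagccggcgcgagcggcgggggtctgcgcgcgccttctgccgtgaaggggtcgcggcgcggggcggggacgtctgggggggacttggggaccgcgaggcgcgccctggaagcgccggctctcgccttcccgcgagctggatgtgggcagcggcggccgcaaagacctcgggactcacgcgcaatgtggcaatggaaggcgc
Hhip: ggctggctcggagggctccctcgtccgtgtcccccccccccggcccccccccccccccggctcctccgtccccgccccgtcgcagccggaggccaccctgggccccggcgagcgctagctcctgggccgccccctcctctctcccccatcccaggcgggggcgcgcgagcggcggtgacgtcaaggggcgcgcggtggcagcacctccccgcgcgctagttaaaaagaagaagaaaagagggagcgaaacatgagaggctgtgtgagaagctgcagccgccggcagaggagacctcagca
Gli2: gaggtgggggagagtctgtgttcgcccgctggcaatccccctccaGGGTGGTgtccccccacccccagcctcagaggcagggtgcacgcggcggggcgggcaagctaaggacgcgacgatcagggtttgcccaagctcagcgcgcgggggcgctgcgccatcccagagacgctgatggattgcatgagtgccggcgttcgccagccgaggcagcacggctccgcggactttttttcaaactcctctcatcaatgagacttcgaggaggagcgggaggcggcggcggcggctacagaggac
None of the 6 windows held the consensus, which stands in 0.253% of 32851 windows of the same length, and of the 6 only that of Gli2 held the core, which stands in 4.61% of them. A match is a description of the letters and no evidence of binding. The Ptch1 window lies inside the gene span given below and not at its 5′ end. Any promoter at another start of Ptch1 was not searched.

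Total counts lay between 8131527 and 12631659 in the Piezo1 GOF libraries and between 8519513 and 17180856 in the WT libraries. WT replicate 1 stood apart from the other libraries in genes of nerve and vessel wall. Of 10 Schwann cell markers, 10 were highest in it, and their summed level was 479.5 to 633 CPM (reads of a gene scaled to equal library size, with TMM factors) in the Piezo1 GOF libraries, against 3877 CPM in WT replicate 1 and 181 and 259 CPM in WT replicates 2 and 3. Of 8 markers of pericytes and smooth muscle, 5 were highest in it, among them the smooth muscle actin gene Acta2 with 142, 160.0 and 163 CPM in Piezo1 GOF replicates 1 to 3, against 1946, 120.4 and 128 CPM in WT replicates 1 to 3. None of the genes on these lists was at 0 in all libraries. Values of the 7 genes are given with and without WT replicate 1. Skeletal muscle RNA was lower in every Piezo1 GOF library than in every WT library. Its 18 markers took 5.04 ± 2.27% of counts in Piezo1 GOF and 11.5 ± 3.39% in WT (n = 3 each, SD; by a two-sided exact permutation test p = 0.1, the smallest that 3 against 3 allows), and 0 of them were at 0 in all libraries.

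**Figure D1:**
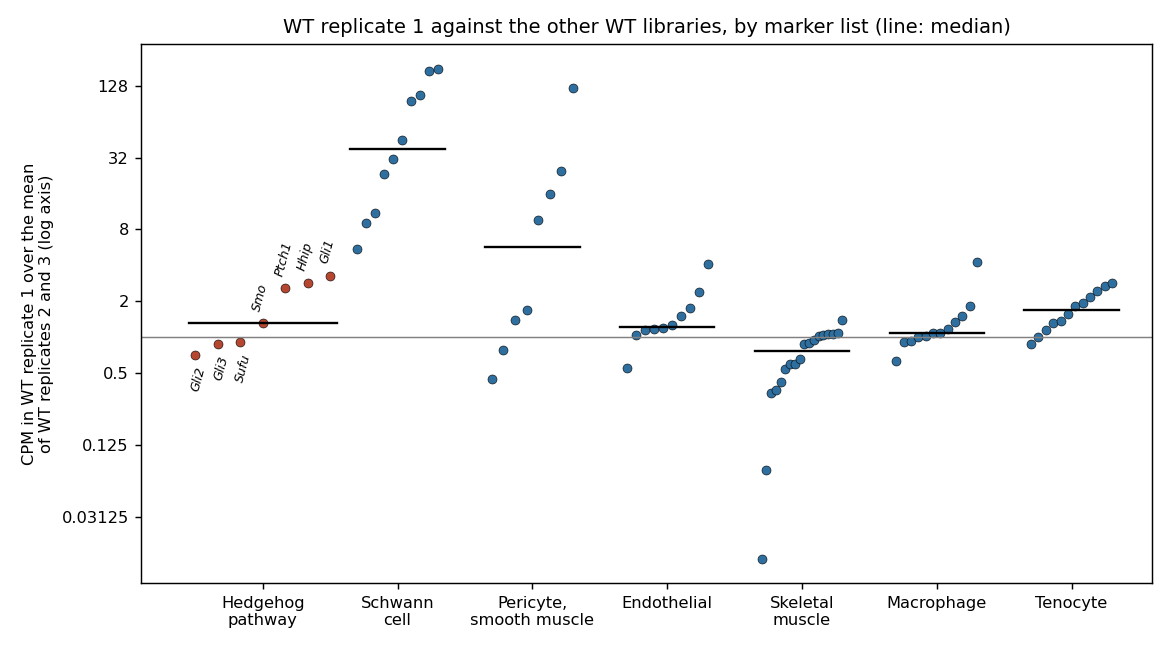
Level (CPM) in WT replicate 1 divided by the mean of WT replicates 2 and 3, on a log axis, for each gene (points) of the hedgehog set and of 6 marker lists, with the median of each list as a line. Gli1, Hhip and Ptch1 lie at 3.25, 2.85 and 2.56, the other 4 hedgehog genes between 0.710 and 1.30, and the median Schwann cell marker at 38.1.

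The 7 genes are taken here by role, a grouping that was not tested. Smo, Gli2 and Gli3, which act between ligand and target genes, had their 3 Piezo1 GOF libraries above all WT libraries, and the inhibitor Sufu stood level. RNA levels do not tell activator from repressor forms of Gli2 and Gli3. The readouts Hhip, Ptch1 and Gli1 were all highest in WT replicate 1. Hhip, at low counts, was lower in every mutant library. Ptch1 had a negative log2 fold change with and without WT replicate 1, with overlapping groups, and Gli1 changed sign without it. Of 6 genes with enough counts to be tested, 0 passed an adjusted p of 0.05 by the quasi-likelihood test of edgeR, adjusted by Benjamini-Hochberg over all 13466 genes tested, a threshold that 0.0149% of all genes passed. At an unadjusted p under 0.05, 3 of the 6 were higher (Smo, Gli2 and Gli3) and 1 lower (Ptch1), where 10.2% of all genes were higher and 9.59% lower (19.8% in all). The groups did not overlap for the 3 higher genes, as for 13.6% of all genes tested with Piezo1 GOF above and 25.6% in either direction. Without WT replicate 1, 0 of the 6 passed, where 1.65% of all genes did, and 2 were higher (Smo and Gli2) and 0 lower by unadjusted p, where 13.3% of all genes were higher and 9.99% lower. Log2 fold changes set Piezo1 GOF over WT and carry standard errors (SE), and adjusted p-values are from the same edgeR test unless another is named. Because the tissue was measured in bulk, more or fewer cells of a type and more or less RNA per cell cannot be told apart.

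**Figure D2:**
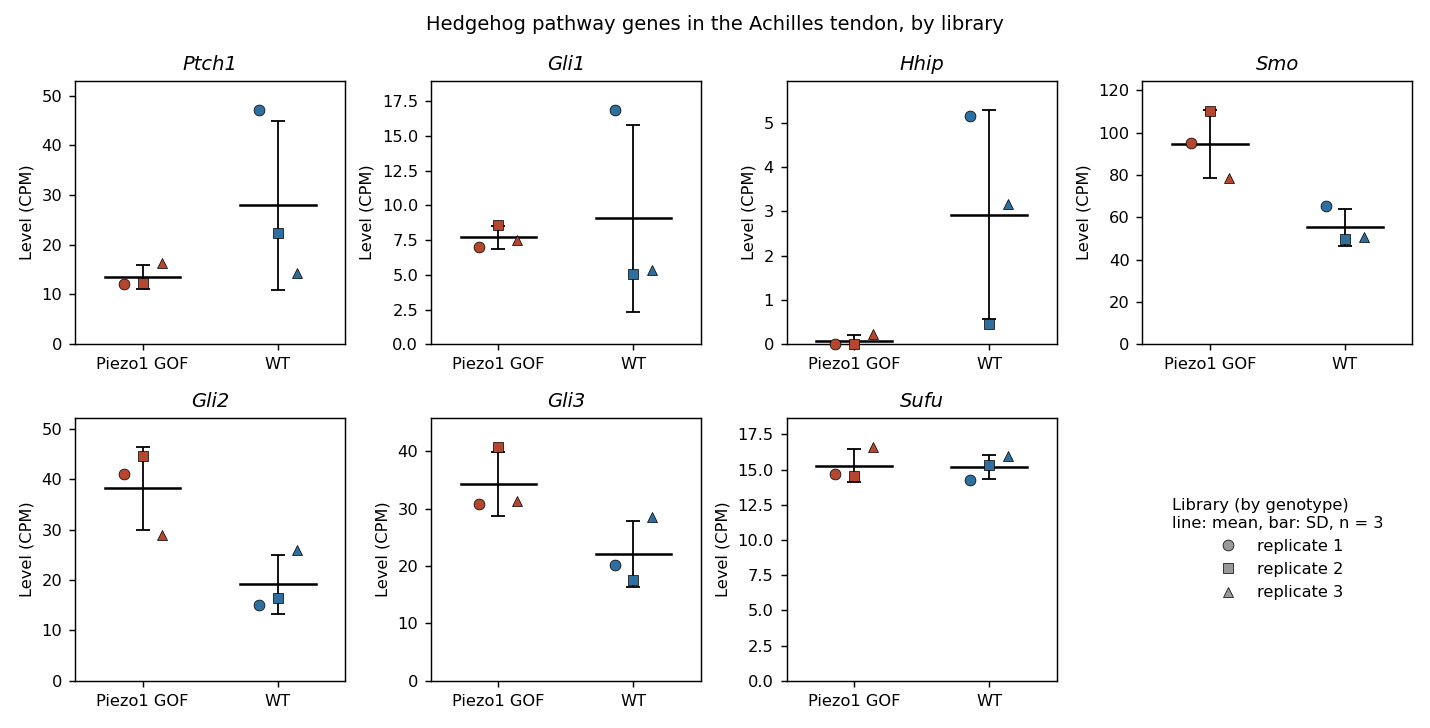
Levels (CPM, from 0) of the 7 hedgehog pathway genes in each library, with Piezo1 GOF left of WT, lines for the mean and bars for the SD (n = 3 each; bars that would pass below 0 end at the axis). The 3 Piezo1 GOF libraries lie above all WT libraries for Smo, Gli2 and Gli3, and WT replicate 1 (circles) is the highest library for Ptch1, Gli1 and Hhip.

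Smo encodes the membrane protein that relays the signal once Ptch1 is occupied. It had 94.9, 110.3 and 78.4 CPM in Piezo1 GOF replicates 1 to 3, against 65.3, 49.9 and 50.5 CPM in WT replicates 1 to 3. The lowest mutant library was 78.4 CPM and the highest WT library 65.3 CPM, so the groups did not overlap. The log2 fold change was 0.78 ± 0.22 (edgeR adjusted p = 0.146; unadjusted p = 0.00657), and 0.93 ± 0.24 without WT replicate 1 (adjusted p = 0.0823). DESeq2 gave 0.76 with an adjusted p of 0.0533. Without WT replicate 1, in a fit added after seeing the data, its adjusted p was 0.0162, which passes. The share of all genes called in that fit was not computed. With any other library left out, Smo did not pass by DESeq2 (adjusted p 0.0630 to 0.234). With the muscle marker score as a covariate in the edgeR fit the value for Smo was 0.58 ± 0.22 (adjusted p = 0.485). Smo spans chromosome 6, 29735503 to 29761365, plus strand of mm10.

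Gli2, which encodes the main activator of hedgehog target genes, had 41.0, 44.6 and 29.0 CPM in Piezo1 GOF replicates 1 to 3, against 15.0, 16.5 and 25.9 CPM in WT replicates 1 to 3. Its groups stood apart by a small margin, between Piezo1 GOF replicate 3 and WT replicate 3. The log2 fold change was 0.998 ± 0.28 (edgeR adjusted p = 0.143), and 0.87 ± 0.30 without WT replicate 1 (adjusted p = 0.140). DESeq2 called Gli2 (0.98 ± 0.33; adjusted p = 0.0464), as it did 5.98% of all genes it tested, 3.46% of them higher and 2.51% lower. That call was lost without any of 5 libraries (DESeq2 adjusted p 0.0543 to 0.248) and held without WT replicate 3 (0.0154). With the muscle marker score as a covariate the edgeR value for Gli2 was 0.83 ± 0.32 (adjusted p = 0.492). Gli2 spans chromosome 1, 118834132 to 119053619, minus strand.

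Gli3, which encodes the factor that is cut to a repressor in the absence of signal, had 30.8, 40.7 and 31.3 CPM in Piezo1 GOF replicates 1 to 3, against 20.2, 17.6 and 28.6 CPM in WT replicates 1 to 3. As for Gli2, WT replicate 3 was the WT library nearest to the mutant range. The log2 fold change was 0.63 ± 0.25 (edgeR adjusted p = 0.216), 0.59 ± 0.28 without WT replicate 1 (adjusted p = 0.251) and 0.39 ± 0.25 with the muscle score as a covariate. The Gli2 count per Gli3 count, which does not depend on library scaling, was 1.33, 1.10 and 0.927 in Piezo1 GOF replicates 1 to 3, against 0.745, 0.935 and 0.905 in WT replicates 1 to 3. That ratio overlapped between the genotypes by a narrow margin. Gli3 spans chromosome 13, 15463235 to 15730026, plus strand.

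Sufu encodes the protein that keeps Gli factors out of the nucleus, and its transcript showed the smallest spread of the 7 relative to its level. It had 14.7, 14.5 and 16.6 CPM in Piezo1 GOF replicates 1 to 3, against 14.3, 15.3 and 15.9 CPM in WT replicates 1 to 3. The groups overlapped, with a log2 fold change of 0.01 ± 0.22 (edgeR adjusted p = 0.984) and -0.01 ± 0.25 without WT replicate 1. Its sign changed with the scaling, so no direction can be given. Sufu spans chromosome 19, 46396896 to 46488804, plus strand.

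Ptch1, both the receptor and a target of the pathway, had 12.1, 12.2 and 16.3 CPM in Piezo1 GOF replicates 1 to 3, against 47.0, 22.4 and 14.4 CPM in WT replicates 1 to 3. The group ranges overlapped only because Piezo1 GOF replicate 3 exceeded WT replicate 3, and WT replicate 1 was 2.56 times the mean of the other WT libraries. The log2 fold change was -1.04 ± 0.41 with all libraries (edgeR adjusted p = 0.217; unadjusted p = 0.0308) and -0.42 ± 0.30 without WT replicate 1 (adjusted p = 0.437; unadjusted p = 0.203). The negative sign held with each library left out in turn. The part that nerve or vessel RNA in WT replicate 1 plays in the Ptch1 value was not tested. Ptch1 spans chromosome 13, 63508328 to 63573598, minus strand.

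Gli1, the factor made in response to the signal and a marker of enthesis progenitor cells, was at low levels. It had 7.02, 8.63 and 7.49 CPM in Piezo1 GOF replicates 1 to 3, against 16.9, 5.05 and 5.32 CPM in WT replicates 1 to 3. WT replicate 1 was the highest and the other WT libraries the lowest, with the mutant libraries between them. The log2 fold change of -0.23 ± 0.48 (edgeR adjusted p = 0.818) became 0.60 ± 0.35 without WT replicate 1 (adjusted p = 0.341), where the 3 Piezo1 GOF libraries lay above the 2 remaining WT libraries. Neither sign passed the test, and the direction for Gli1 rests on that library. Gli1 (chromosome 10, 127329882 to 127341974, minus strand) shares 62 exonic bases with Arhgap9 on the other strand, and since use of strand in counting is not given in the sources used here, reads there cannot be assigned.

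Hhip encodes a membrane protein that binds hedgehog ligands and removes them from the receptor. Its counts were 0, 0 and 3 in Piezo1 GOF replicates 1 to 3, against 48, 7 and 28 in WT replicates 1 to 3. All mutant libraries were below all WT libraries, as for 12.1% of all genes tested, with WT replicate 2 close to the mutant range. Summed over libraries, the level was 0.0963 CPM in Piezo1 GOF and 2.46 CPM in WT, a ratio of 0.0392 (95% exact interval 0.00793 to 0.119, covering counting error only). Without WT replicate 1 the ratio was 0.0674 (0.0133 to 0.214). Hhip did not pass the count filter of the main edgeR test. Tested with no filter, edgeR gave an adjusted p of 0.0817, and DESeq2 called it lower (adjusted p = 0.00697), a call lost on leaving out Piezo1 GOF replicate 2 (0.0612), WT replicate 1 (0.0709) or WT replicate 3 (0.0636). Hhip spans chromosome 8, 79965851 to 80058006, minus strand.

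Levels can be ordered between genes only per length, here as CPM per kilobase of merged GENCODE exons. In Piezo1 GOF the order was Smo (16.8 ± 2.84; SD, n = 3), Gli2 (5.56 ± 1.19), Gli3 (3.57 ± 0.583), Sufu (1.99 ± 0.149), Gli1 (1.54 ± 0.165), Ptch1 (0.955 ± 0.169) and Hhip, which had counts only in Piezo1 GOF replicate 3 (0.0245). Of neighbours in that order, only Gli2 and Gli3 overlapped. In WT, Smo (9.82 ± 1.56; SD, n = 3) was again above all and Hhip (0.322 ± 0.260) below all. The 5 genes between them, from Gli2 (2.79 ± 0.859) to Gli1 (1.82 ± 1.35), overlapped with their neighbours in the WT order. The merged exons of Ptch1 hold 14185 bases over several transcripts, so its value per length is a low estimate.

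Ratios of counts within a library, looked at after the levels were seen and given without a test, do not depend on scaling. The Ptch1 count per Smo count was 0.127, 0.111 and 0.208 in Piezo1 GOF replicates 1 to 3, against 0.720, 0.448 and 0.285 in WT replicates 1 to 3. All mutant ratios were below all WT ratios, also without WT replicate 1. Since Ptch1 had been seen lower and Smo higher in the mutant, this separation follows in part from the levels above. How many other gene pairs separate was not computed, for this ratio or the next. The Ptch1 count per Gli1 count was 1.72, 1.42 and 2.18 in Piezo1 GOF replicates 1 to 3, against 2.79, 4.43 and 2.70 in WT replicates 1 to 3, again with no overlap. The Gli1 count per Gli2 count was 0.171, 0.193 and 0.258 in Piezo1 GOF replicates 1 to 3, against 1.12, 0.306 and 0.205 in WT replicates 1 to 3, where the genotypes overlapped and WT replicate 1 lay far above the rest. The Gli1 count per Gli3 count overlapped too. It was 0.228, 0.212 and 0.239 in Piezo1 GOF replicates 1 to 3, against 0.835, 0.286 and 0.186 in WT.

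**Figure D3:**
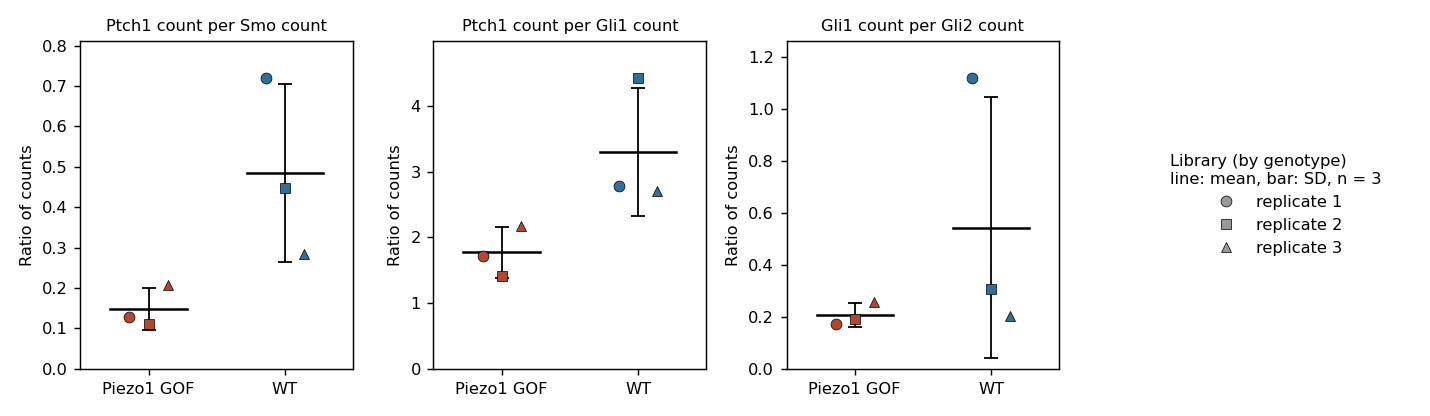
Ratios of counts within each library for 3 pairs of genes, from 0, with Piezo1 GOF left of WT, lines for the mean and bars for the SD (n = 3 each). The ratio of Ptch1 to Smo is at most 0.208 in the mutant libraries and at least 0.285 in the WT libraries, while the ratio of Gli1 to Gli2 overlaps.

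The profiles of the 6 tested genes over the 6 libraries were compared with each other. As the root mean square difference of centred log2 CPM, Gli2 and Gli3 differed by 0.256, Gli3 and Smo by 0.285, and Gli2 and Smo by 0.358, against 0.405 for Gli3 and Sufu, 0.463 for Smo and Sufu, 0.520 for Ptch1 and Gli1 and 1.23 for Ptch1 and Gli2. They were also compared with 10471 other genes with a mean of at least 5 CPM. Predicted genes, Rik genes, ribosomal protein genes, mitochondrial genes, pseudogenes and noncoding RNAs had been left out by name pattern. The nearest of the 10471 to Smo was Boc, a hedgehog co-receptor gene, at 0.0498, then Tmem167b (0.0543) and Nab2 (0.0577), where the median gene was 0.543 away. The nearest to Gli2 were Hmha1, Raph1 and Adamts6 (0.148 to 0.175), and to Gli3 Tnip2, Lurap1l and Osbpl3 (0.0769 to 0.104). For Gli1 they were Vgll3, Kazn and the Notch ligand gene Jag1 (0.124 to 0.174), for Ptch1 Itpk1, the growth factor gene Bmp4 and Col23a1 (0.211 to 0.230), and for Sufu Senp3, Son and Cast (0.0325 to 0.0396). With 6 libraries, likeness of this kind is a description.

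The ligands were scarce. Dhh, the ligand of Schwann cells, had 0.520, 1.30 and 1.41 CPM in Piezo1 GOF replicates 1 to 3, against 12.1, 1.15 and 0.905 CPM in WT replicates 1 to 3. Outside WT replicate 1 all libraries lay within 0.520 to 1.41 CPM, and the log2 fold change of -2.08 ± 0.998 (edgeR adjusted p = 0.283) became 0.10 ± 0.78 without it (adjusted p = 0.955). The Dhh value is uncertain, since 546 of its exonic bases are shared with Rhebl1 on the same strand. Ihh, the ligand of hypertrophic chondrocytes, had 12, 0 and 6 counts in Piezo1 GOF replicates 1 to 3, against 6, 5 and 0 in WT, too few to test. Shh had 0 counts in every library, which allows up to 0.390 CPM in the library with the least depth.

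The genes that release ligand split. The 5 tested ones had a median log2 fold change of -0.03, against -0.00448 for all genes, and 0 passed by edgeR. Disp1, which frees lipid-bearing ligand from the cell that makes it, had 51.0, 42.5 and 46.2 CPM in Piezo1 GOF replicates 1 to 3, against 41.9, 18.1 and 23.1 CPM in WT replicates 1 to 3. Its groups did not overlap, as for 13.6% of all genes tested with Piezo1 GOF above. Its log2 fold change was 0.75 ± 0.31 (edgeR adjusted p = 0.229) and 1.20 ± 0.24 without WT replicate 1 (adjusted p = 0.0525). Scube3, one of the secreted proteins that carry ligand, had 1.04, 1.10 and 1.33 CPM in Piezo1 GOF replicates 1 to 3, against 3.65, 3.13 and 4.64 CPM in WT replicates 1 to 3. All mutant libraries were lower (-1.69 ± 0.46; edgeR adjusted p = 0.141; DESeq2 adjusted p = 0.0477), also without WT replicate 1 (-1.70 ± 0.57; edgeR adjusted p = 0.136). Scube2 stood at -0.47 ± 0.32 (edgeR adjusted p = 0.434). Scube1, named after its values were seen, was 11.8 times as high in WT replicate 1 as in the mean of the other WT libraries, at 0.50 ± 0.87 with all libraries (edgeR adjusted p = 0.772) and 2.70 ± 0.53 without that library (adjusted p = 0.0493).

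Among all pathway genes tested, the smallest p-values were those of Cdon and Gas1, which with Boc encode the co-receptors that help ligand reach Ptch1. Cdon had 213, 165 and 144 CPM in Piezo1 GOF replicates 1 to 3, against 80.1, 59.3 and 71.9 CPM in WT replicates 1 to 3. Its log2 fold change was 1.30 ± 0.24, 2.47 times the WT level, which missed the threshold by edgeR (adjusted p = 0.0648) and passed it by DESeq2 (adjusted p = 0.000131). Without WT replicate 1 it passed by edgeR as well (1.43 ± 0.28; adjusted p = 0.0490), together with Scube1 the only calls among the 42 other pathway genes tested there, where 1.32% of all genes were called higher and 0.332% lower. Gas1, a membrane-anchored co-receptor, had 480.3, 816 and 325 CPM in Piezo1 GOF replicates 1 to 3, against 191, 96.2 and 185 CPM in WT replicates 1 to 3. Boc, the paralogue of Cdon, had 131, 154 and 102 CPM in Piezo1 GOF replicates 1 to 3, against 85.0, 65.5 and 71.0 CPM in WT replicates 1 to 3. For both, every mutant library was above every WT library, with log2 fold changes of 1.78 ± 0.42 for Gas1 (edgeR adjusted p = 0.111; DESeq2 0.000388) and 0.80 ± 0.23 for Boc (edgeR adjusted p = 0.148; DESeq2 0.0446). Without WT replicate 1 the edgeR values were 1.96 ± 0.48 for Gas1 (adjusted p = 0.0751) and 0.94 ± 0.26 for Boc (adjusted p = 0.0909).

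The genes around Smo and those that process the Gli factors were read against all genes, of which 10.2% were higher with an unadjusted p under 0.05 and 9.59% lower. Of 10 genes of the Smo module, 3 were higher at that p and 0 lower, namely Smo, the arrestin gene Arrb2 (0.91 ± 0.33; edgeR adjusted p = 0.197) and Efcab7 (1.82 ± 0.73; adjusted p = 0.222), which anchors the Evc complex in the cilium and was at most 4.21 CPM in any library. Of 16 regulators of Gli processing, 0 were higher and 2 lower at that p, and their median log2 fold change was -0.15. The lower values were those of Cul3, a ubiquitin ligase scaffold (-0.73 ± 0.27; edgeR adjusted p = 0.197), and the kinase gene Gsk3a (-0.82 ± 0.35; adjusted p = 0.241), followed by the casein kinase gene Csnk1a1 (-0.42 ± 0.22; adjusted p = 0.313). WT replicate 2 was the highest library for all 3 and the one with the most muscle marker RNA, whose part in these values was not tested.

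Of 14 target genes, Gli1, Ptch1 and Hhip included, 10 were tested and their median log2 fold change was 0.11, or 0.42 without WT replicate 1. The survival gene Bcl2 had 50.6, 84.7 and 46.9 CPM in Piezo1 GOF replicates 1 to 3, against 32.8, 38.5 and 23.1 CPM in WT replicates 1 to 3, with no overlap, and a log2 fold change of 0.95 ± 0.30 (edgeR adjusted p = 0.167), or 0.99 ± 0.35 without WT replicate 1 (adjusted p = 0.143). Sfrp1, which encodes a secreted Wnt antagonist, stood at 0.87 ± 0.43 (edgeR adjusted p = 0.295) and 1.50 ± 0.36 without WT replicate 1 (adjusted p = 0.0715). The cyclin genes Ccnd1 (0.01 ± 0.51, or 0.26 ± 0.57 without WT replicate 1) and Ccnd2 (0.41 ± 0.40, or 0.58 ± 0.45 without it) overlapped between the genotypes. Foxf2, Foxl1 and Nkx3-2 had too few counts to be tested.

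Of 22 genes of the primary cilium, in which the pathway operates, 20 had positive and 2 negative log2 fold changes, where 6691 of all 13466 genes tested were positive. The median of the 22 was 0.39, and 0.38 without WT replicate 1. None passed by edgeR's adjusted p, DESeq2 called none of them either, and 3 were higher at an unadjusted p under 0.05, a share not far from the 10.2% of all genes. These were the transport genes Ift20 (1.18 ± 0.36; edgeR adjusted p = 0.162) and Ift27 (0.76 ± 0.27; adjusted p = 0.191) and the dynein gene Dync2h1 (0.52 ± 0.20; adjusted p = 0.217). The medians are on the log2 scale relative to all genes tested, and the genes of a list are not independent replicates.

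**Figure D4:**
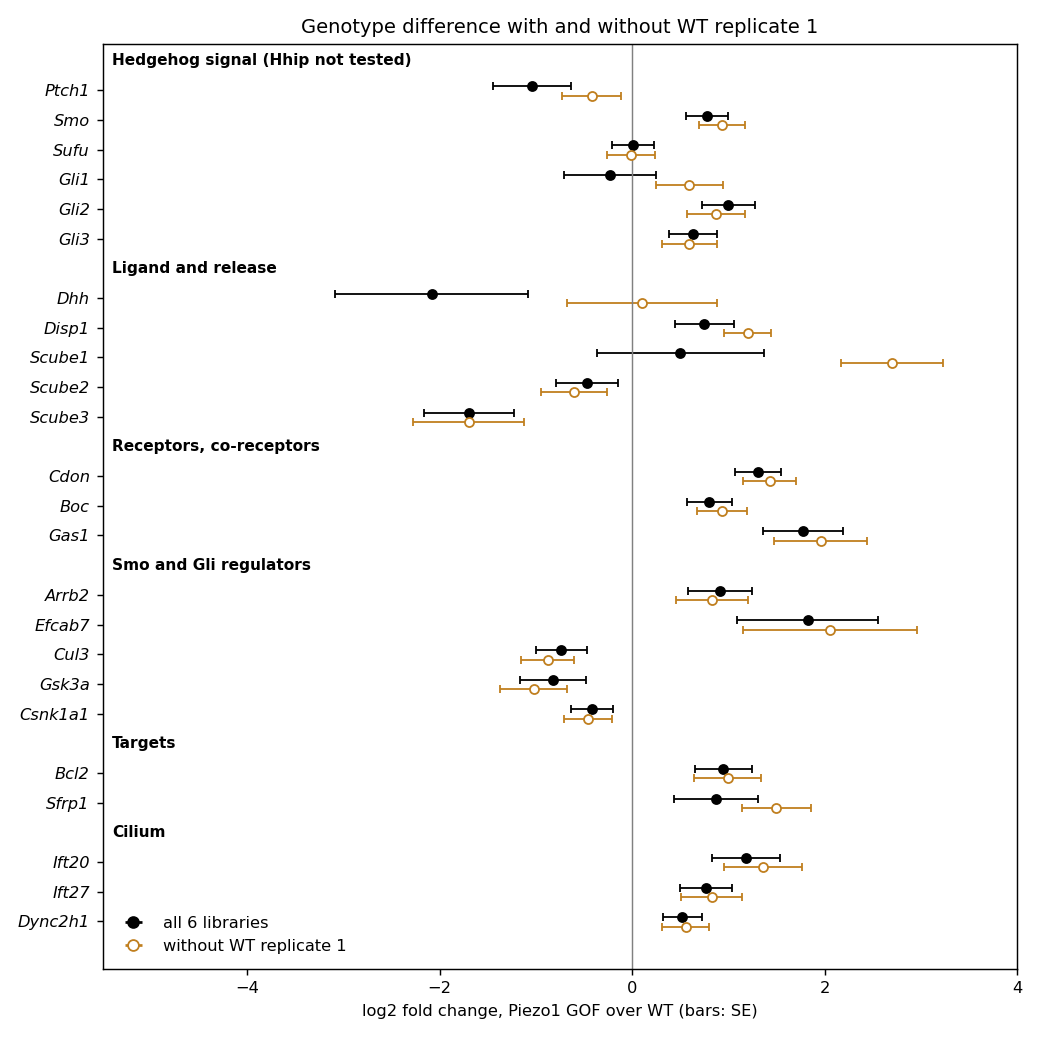
Log2 fold changes of Piezo1 GOF over WT with SE bars for tested hedgehog pathway genes by role, with all 6 libraries (filled) and without WT replicate 1 (open). Smo, Gli2, Gli3, Cdon, Boc and Gas1 lie right of 0 in both fits, while Gli1 moves across 0 (-0.23 and 0.60) and Dhh comes to lie at 0.10.

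Across the 48 pathway genes other than the 7 and the cilium genes, 42 were tested, 0 passed by edgeR, 7 had an unadjusted p under 0.05 with a higher value and 3 with a lower one, and the median log2 fold change was 0.04, or 0.13 without WT replicate 1. Over all genes 10.2% were higher and 9.59% lower at that p. Of the 42, 8 had all Piezo1 GOF libraries above all WT libraries and 2 had all below, where 13.6% and 12.1% of all genes tested did. DESeq2 called 4 of these pathway genes, namely Cdon, Gas1, Boc and Scube3, against 5.98% of all genes. Beside these genes, the summed markers of tendon, tendon sheath, fibrocartilage, bone and macrophages were higher, and those of endothelium and of pericytes and smooth muscle lower, in every Piezo1 GOF library than in any WT library. The 12 tenocyte markers summed to 39862 to 71544 CPM in Piezo1 GOF and 5493 to 18465 CPM in WT. The 19 markers of cartilage and mineralising fibrocartilage summed to 10387 to 26820.4 CPM in Piezo1 GOF and 957 to 5256 CPM in WT. Most of the Piezo1 GOF sum was Chad (7209 to 20953 CPM), which with Comp and Cilp2 is also on the tenocyte list, so the 2 sums are not separate. Of 16 fibrocartilage markers tested, 11 had all Piezo1 GOF libraries above all WT libraries and 1 (Sox6) had all below, while others such as Sox9 overlapped. Of the 19 markers, Col9a1 and Matn1 were at 0 in all WT libraries and at or under 0.593 CPM in Piezo1 GOF, while the aggrecan gene Acan was at 56.0 ± 9.42 CPM in Piezo1 GOF and 12.9 ± 6.81 CPM in WT (SD, n = 3 each). The 8 bone markers summed to 1670.4 to 3174 CPM in Piezo1 GOF and 74.7 to 384 CPM in WT. Nearly all of that sum was Spp1 and Ibsp, the latter also on the fibrocartilage list. Of 4 bone markers tested, 3 had all Piezo1 GOF libraries above, and Phex overlapped with a log2 fold change of -1.85. The 12 macrophage markers, 10 of them higher at an unadjusted p under 0.05, summed to 666 to 822 CPM in Piezo1 GOF and 181 to 282 CPM in WT. The 8 tendon sheath markers summed to 2321 to 4245 CPM in Piezo1 GOF and 641 to 1226 CPM in WT. Most of the Piezo1 GOF sum was Prg4 (1524.5 to 3367 CPM). Of the 8, 6 had all Piezo1 GOF libraries above all WT libraries, while Pi16 and Tppp3 overlapped, Tppp3 with a log2 fold change of -0.02. The 10 endothelial markers summed to 569 to 856 CPM in Piezo1 GOF and 895 to 1500.4 CPM in WT, and the pericyte and smooth muscle markers to 1229 to 2236 CPM in Piezo1 GOF and 3647 to 5877 CPM in WT. Gene by gene, 3 of the 10 endothelial markers had all Piezo1 GOF libraries below all WT libraries, and 2 had positive log2 fold changes. Of 7 tested pericyte and smooth muscle markers, 2 (Des and Rgs5) had all Piezo1 GOF libraries below. Des alone held 1446, 4072 and 2468 CPM of that sum in WT replicates 1 to 3. In those libraries the skeletal muscle markers took 7.78, 14.4 and 12.2% of counts. The part of muscle RNA in the Des values was not tested. The median log2 fold change of the pericyte and smooth muscle list was 0.08 without WT replicate 1. No marker on these lists was at 0 in all libraries. The part that these tissues play in the values of the hedgehog genes was not tested. For muscle, the values with its score as a covariate stand above for Smo, Gli2 and Gli3, and none is given for the co-receptors or the cilium genes.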

How the data were processed

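RNA of 6 Achilles tendon samples was sequenced after library preparation with a RamDA-seq kit, per the labels' protocols. This method primes along the whole transcript, with or without a poly(A) tail. The authors deposited expected counts per gene, unscaled, and per the submitters' processing notes used bcl2fastq, STAR, RSEM and edgeR on build mm10, with no versions or roles given. Neither the annotation nor the strand setting is given in the sources used here. Per library, 7.80% to 8.88% of values were not whole, and counts were rounded.

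Genes were filtered with filterByExpr (minimum count 10), scaled by TMM (factors 0.897 to 1.10) and tested with edgeR's two-sided quasi-likelihood F-test, Piezo1 GOF against WT, 3 libraries each, no covariates, with Benjamini-Hochberg adjustment, and SE as the log2 fold change over the root of F. The common dispersion of 0.113 sets the precision. Replicates differed beyond sampling noise (chi-square per degree of freedom 41.8 to 145). Coordinates and lengths are from GENCODE vM21 (mm10), in which 95.6% of symbols had 1 match. The chain was tested on simulated counts.

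The 7 genes and all lists were chosen with earlier results of these data known. Genes named are the 7, the ligands, up to 3 genes of smallest p per pathway list, and the 3 nearest profiles of each tested gene. Others, such as Scube1, Ccnd1, Ccnd2, Col9a1, Matn1, Acan and Acta2, were chosen after their values were seen. Alternatives were other scalings, filters and tests (DESeq2, edgeR's exact test, limma voom), the replicate block, a muscle covariate, removal of muscle markers or of Rn45s and Lars2, and leaving out each library. DESeq2 without each library was added after seeing the data. The fits ran with DESeq2 1.42.0, edgeR 4.0.16 and limma 3.58.1 under R 4.3.3; Python 3.11.15 drew the plots.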

Additional observations from a re-analysis of the deposited data

How the results depend on the processing

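The signs for Smo, Gli2, Gli3, Ptch1 and Hhip held under every setting that gave a value. With each library left out in turn, the edgeR log2 fold changes were 0.67 to 0.93 for Smo, 0.87 to 1.27 for Gli2, 0.49 to 0.85 for Gli3, -1.35 to -0.42 for Ptch1, -7.90 to -4.31 for Hhip (in the 4 such fits whose filter kept it), -0.53 to 0.60 for Gli1 and -0.045 to 0.070 for Sufu, with none past the threshold. By DESeq2, added after seeing the data, they were 0.65 to 0.89 for Smo, 0.83 to 1.25 for Gli2, 0.47 to 0.83 for Gli3, -1.37 to -0.46 for Ptch1, -7.13 to -4.41 for Hhip and -0.55 to 0.55 for Gli1. DESeq2 called Hhip without Piezo1 GOF replicate 1 (-4.62), Piezo1 GOF replicate 3 (-7.13) or WT replicate 2 (-5.56), and gave Sufu a negative value without Piezo1 GOF replicate 3 (-0.071), WT replicate 1 (-0.052) or WT replicate 2 (-0.0010). Without Piezo1 GOF replicate 3 the mutant group has 0 Hhip counts, so the values there (-7.13 and -7.90) depend on how each fit treats 0 and are no size of effect. Gli2 passed by DESeq2 (0.98) and by edgeR's exact test (0.998; adjusted p = 0.0415), and Hhip by DESeq2 (-5.07). Hhip was -5.30 as the log2 ratio of mean CPM, Piezo1 GOF over WT. Ptch1 was -0.56 by limma voom, and with the muscle covariate Gli1 was -0.60 and Gli3 0.39. Gli1 turned positive by limma voom (0.12) and with the replicate block (0.0128). Sufu turned negative with DESeq2 size factors (-0.0042), by DESeq2 (-0.0084) and without Rn45s and Lars2 (-0.013). The cause of these changes was not tested.

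Over all genes, the count of 2 became 0 without TMM factors, with the replicate block and with the muscle covariate, 165 with no filter, 882 by DESeq2, 689 by the exact test, 116 by voom, and 0 to 228 with a library left out, the highest without WT replicate 1. Among the other hedgehog and cilium genes the count of 0 became 4 by DESeq2 and 0 to 2 with a library left out. Without TMM factors the median of all genes moved by 0.10. Same-numbered libraries did not deviate together (correlations -0.207 to -0.0526). With 3 libraries per genotype this cannot show whether samples were paired, which the labels do not state. The replicate block changed no call among the 6 genes it could be fitted to (Hhip was not among them). Low counts kept Hhip, Ihh and Shh out of the main test.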

Other observations

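Hedgehog signalling in cartilage is tied to a loop in which the parathyroid hormone-related peptide gene Pthlh answers Ihh and acts through the receptor gene Pth1r. Pthlh had 2.47, 8.83 and 6.15 CPM in Piezo1 GOF replicates 1 to 3, against 8.70, 2.68 and 7.58 CPM in WT replicates 1 to 3, and the genotypes overlapped (-0.10 ± 0.56; edgeR adjusted p = 0.939; 0.23 ± 0.62 without WT replicate 1, adjusted p = 0.856). Pth1r had 54.9, 59.1 and 31.8 CPM in Piezo1 GOF replicates 1 to 3, against 25.9, 8.75 and 8.94 CPM in WT replicates 1 to 3. Every mutant library was above every WT library, at 1.75 ± 0.45 with all libraries (edgeR adjusted p = 0.127) and 2.47 ± 0.33 without WT replicate 1 (adjusted p = 0.0283), which passes. The hypertrophic collagen gene Col10a1 had 3.64, 2.31 and 6.23 CPM in Piezo1 GOF replicates 1 to 3, against 3.11, 4.15 and 2.71 CPM in WT replicates 1 to 3, with overlapping groups (0.29 ± 0.48; edgeR adjusted p = 0.764). These 3 genes and Gpc3 were named after their values were seen.

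Gpc3, which encodes a cell-surface proteoglycan that can bind hedgehog ligands, had 7.54, 16.5 and 18.1 CPM in Piezo1 GOF replicates 1 to 3, against 95.9, 8.88 and 13.1 CPM in WT replicates 1 to 3. It was 8.72 times as high in WT replicate 1 as in the mean of WT replicates 2 and 3, and its log2 fold change was -1.47 ± 0.81 with all libraries (edgeR adjusted p = 0.335) and 0.39 ± 0.41 without that library (adjusted p = 0.605). Over all genes tested, 118 were more than 3 times higher in WT replicate 1 than in any other library, against 2 to 33 genes for each of the other 5 libraries.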
